A study of Homo sapiens with 26 samples.

Results

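The promoters of 35 genes that act in the G2 phase and in mitosis were examined in 10 peak lists of H3K27ac (histone H3 acetylated at lysine 27, a mark of active promoters and enhancers). The genes came from a fixed list, drawn up with earlier results of these data known. A peak counted where it overlapped the window reaching 1000 bp before and 200 bp past an annotated start site on GRCh37. The 35 genes stand beside 19785 protein-coding genes with such a window. Their peaks stand beside 18757 regions called in every H3K27ac list, of which 10612 overlap a coding promoter. The cells were HCT116, a colorectal cancer line whose p53 is intact, and a derivative of it with RAD21, which encodes part of the cohesin ring, in its name. Per the study's methods, every RAD21 allele of the derivative carries an auxin-inducible degron and an auxin analogue preceded Nutlin-3a. That addition is absent from the labels, so these samples are called the RAD21 line here. The parental cells (WT) had received vehicle (0 h) or Nutlin-3a for 1 h or 10 h, and the RAD21 line vehicle or Nutlin-3a for 1 h. Nutlin-3a blocks the binding of p53 to HDM2 and so stabilises p53. H3K4me1 (monomethylated lysine 4, which flanks active promoters and marks enhancers) was measured in WT at the 3 time points. Each group held 2 libraries with a peak list each.

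The members drive entry into mitosis and the sharing out of chromosomes. CDK1 with the B cyclins starts mitosis, the kinetochore ties chromosomes to spindle microtubules, the spindle checkpoint holds anaphase until every kinetochore is attached, and motors and anillin complete division. Their transcription peaks in G2 and M. It depends on promoter elements called CCAAT boxes, bound by NF-Y, and on the cell cycle genes homology region (CHR), bound by the MuvB core with B-MYB and FOXM1 or, in resting and arrested cells, with the pocket proteins p107 and p130 as the DREAM repressor. The p53 target p21 favours the DREAM form.

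These elements can be read in the promoters that carry the main result below. The sequences are 250 bases before the RefSeq start site (table of build GRCh38.p14), read 5′ to 3′ in the direction of the gene and placed on GRCh37 by exact match. Capitals mark 3 motifs, searched on both strands. A CHR word was TTTGAA, with TTTAAA as its variant. A CCAAT box was CCAAT. An E2F word was TTTCCCGC, TTTCGCGC, TTTGCCGC or TTTGGCGC. SPC25, MKI67, CDK1 and CCNB2 are shown because, with BIRC5, they had the smallest p-values at 10 h of Nutlin-3a in WT. CDC25B and ANLN, chosen after their values were seen, are the pair that ranked higher at that time.
SPC25, chr2:169746941-169747190, minus strand: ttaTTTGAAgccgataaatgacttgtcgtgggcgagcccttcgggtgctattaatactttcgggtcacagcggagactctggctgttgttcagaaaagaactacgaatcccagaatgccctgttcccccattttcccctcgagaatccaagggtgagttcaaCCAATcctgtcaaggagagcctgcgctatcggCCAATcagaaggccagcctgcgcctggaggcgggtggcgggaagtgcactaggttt
MKI67, chr10:129924688-129924937, minus strand: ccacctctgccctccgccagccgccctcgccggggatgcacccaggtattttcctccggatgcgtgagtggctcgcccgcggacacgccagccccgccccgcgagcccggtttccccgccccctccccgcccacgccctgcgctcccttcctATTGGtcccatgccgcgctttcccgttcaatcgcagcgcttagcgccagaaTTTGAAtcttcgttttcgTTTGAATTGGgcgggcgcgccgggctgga
CDK1, chr10:62537986-62538235, plus strand: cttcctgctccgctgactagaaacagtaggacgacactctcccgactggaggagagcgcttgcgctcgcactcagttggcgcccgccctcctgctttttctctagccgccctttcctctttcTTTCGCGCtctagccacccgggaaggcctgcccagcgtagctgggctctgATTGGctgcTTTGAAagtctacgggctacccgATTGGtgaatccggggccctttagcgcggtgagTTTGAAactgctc
CCNB2, chr15:59397095-59397344, plus strand: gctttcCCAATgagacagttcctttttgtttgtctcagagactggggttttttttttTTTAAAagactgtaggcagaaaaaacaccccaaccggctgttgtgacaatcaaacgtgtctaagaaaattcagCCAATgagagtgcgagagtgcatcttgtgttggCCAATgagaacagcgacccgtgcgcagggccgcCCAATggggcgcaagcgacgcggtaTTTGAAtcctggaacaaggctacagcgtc
CDC25B, chr20:3776707-3776956, plus strand: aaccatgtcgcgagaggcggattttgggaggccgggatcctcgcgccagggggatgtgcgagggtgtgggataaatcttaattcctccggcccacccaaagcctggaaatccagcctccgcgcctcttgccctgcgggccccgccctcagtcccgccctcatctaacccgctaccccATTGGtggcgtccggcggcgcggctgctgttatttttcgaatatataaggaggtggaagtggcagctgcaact
ANLN, chr7:36429221-36429470, plus strand: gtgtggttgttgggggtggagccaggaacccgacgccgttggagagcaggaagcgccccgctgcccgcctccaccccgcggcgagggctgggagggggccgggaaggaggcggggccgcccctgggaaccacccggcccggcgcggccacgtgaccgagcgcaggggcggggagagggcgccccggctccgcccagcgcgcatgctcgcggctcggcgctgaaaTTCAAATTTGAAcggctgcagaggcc
The promoters of SPC25, MKI67, CDK1 and CCNB2 each hold at least 1 CHR word and at least 2 CCAAT boxes. That of CDC25B holds 1 CCAAT box and no CHR word, and that of ANLN 2 CHR words and no CCAAT box. These promoters were picked by their 10 h values, and the members did not divide this way. CCNA2, BUB1 and SPC24 ranked lower without a CHR word, and BUB1B and NDC80 without a CCAAT box. PLK1, CDC20, KIF23, KIF20A and ECT2 held both and ranked neither lower nor higher. In CCNB2 the boxes begin 244, 120, 87 and 54 bases before the start, and the CHR words 193 and 29 bases before it. In MKI67 the CHR word 29 bases before the start and the CCAAT box 24 bases before it share a base. A further CHR word of SPC25 begins 3 bases before its start, runs past the printed bases and is not marked.

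The RefSeq table matched 28 of the 35 members, and BUB3, AURKA, TTK, BIRC5, FOXM1, TPX2 and UBE2C were not matched. In windows of 300 bases (250 before to 50 after the start), 22 of the 28 (78.6%) held a CHR word, against 24.0% of the 35116 start sites of the table and 16.3% of those at coding genes with H3K27ac in every list. A CCAAT box was found in 22 of 28 (78.6%), against 34.6% and 35.1%. E2F words were found in 2 of 28 (7.14%), against 3.31% and 5.22%. Both a CHR word and a CCAAT box stood in 16 of 28 members (57.1%), against 9.27% of all start sites. A CHR word began 1 to 100 bases before the start in 18 of the 28, and a CCAAT box 50 to 100 bases before it in 20. In a list of other mitotic genes CHR words stood at 66.2% of 68 start sites, CCAAT boxes at 64.7% and both at 48.5%. In a list of G1/S and replication genes CHR words stood at 13.6% of 44 start sites, and E2F words at 40.9%. CCAAT boxes stood at 61.4% of those 44, and both a CHR word and a box at 6.82%. Each member gave 1 window, the nearest to its canonical start, while the other sets gave every start site in the table. These are matches of letters, not measured binding.

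All 35 members had a peak over the promoter in each of the 10 H3K27ac lists, while 61.4% to 63.0% of the coding genes did, depending on the list. The lists held 31640 to 49127 peaks and no read counts, so the depth behind a peak was unknown. Promoters of the epithelial genes EPCAM, CDH1, KRT8 and KRT18 were called in every list, and those of PTPRC, CD3E, ALB and GFAP, markers of blood, liver and glia, in none. The peak names of the 2 WT lists at 0 h and of WT 1 h replicate 1 lack the word input, which stands in those of the other 7 lists. These 3 lists covered 30.7 to 31.9 Mb, and the other 7 covered 49.1 to 66.6 Mb. The peak names of RAD21 line 0 h replicate 2 carry 2 replicate numbers, so that list may hold more than 1 library. Nothing in the labels says whether replicates came from separate cultures, so the tests measure the spread between these lists, which may be technical. The libraries are of bulk cells, so fewer cells with the mark at a promoter and less of the mark in each cell cannot be told apart.

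Levels are given as percentiles of the rank by −log10 p-value within a list, over the 18757 regions called in every list, where 100 is the strongest. Changes are differences of the normal scores of these ranks, where 1 is 1 standard deviation (SD) of a list, and "ranked higher" or "lower" means a limma adjusted p-value under 0.05 over all 18757 regions. A rank is relative, so a promoter can fall in rank because others rose.

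In untreated WT cells the member promoters had a median percentile of 60.5 and 63.6 in the 2 lists, beside 67.1 and 67.2 for coding promoter regions. They covered nearly the whole range. NDC80, part of the outer kinetochore complex that grips microtubules, stood at 99.6 and 99.7, and its region is shared with the start of METTL4. PRC1, which bundles the central spindle, stood at 95.0 and 95.1. NEK2, a centrosome kinase, stood lowest at 16.0 and 20.6, and the polo kinase PLK1 next at 23.7 and 31.4. The replicates of a group lay close. The median gap between the 2 lists of a group over the members was 2.16 to 5.39 percentile points, and the largest gap was 24.7 points (CDC25B in WT at 1 h).

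**Figure D1:**
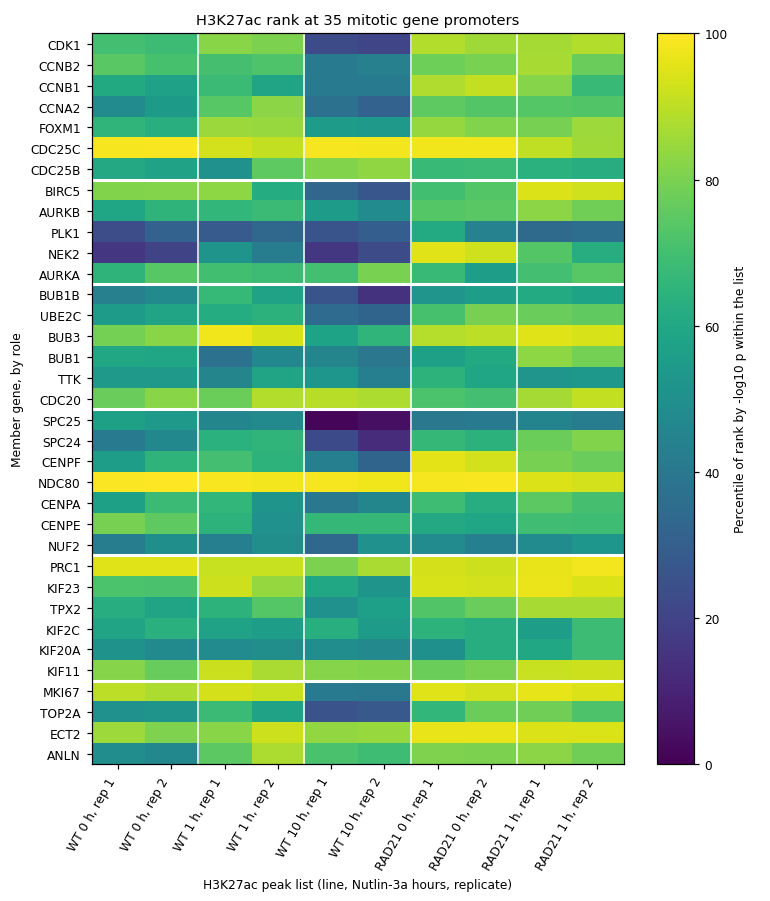
Percentile of the H3K27ac rank (colour) at the 35 member promoters (rows, by role and then by 10 h change) in the 10 peak lists (columns, by line, hours of Nutlin-3a and replicate). The columns of WT 10 h are darker than those of WT 0 h for most rows, down to 1.91 and 3.99 for SPC25, and NEK2 changes from 16.0 and 20.6 in WT to 95.3 and 92.9 in the RAD21 line at 0 h.

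The comparison of WT at 10 h with 0 h sets the longer Nutlin-3a treatment beside vehicle. Of the 35 members, 17 ranked lower and 2 ranked higher, beside 8.56% of all regions lower and 9.7% higher. The list of members was drawn up with earlier results of these data known, so these shares only describe it. The median change over the members was −0.42, against −0.04 over all regions and −0.08 over coding promoter regions, where 10.4% ranked lower. The median percentile of the members was 48.9 and 46.9 at 10 h. In 24 of the 35 both 10 h lists lay below both 0 h lists, beside 37.2% of all regions, and in 3 both lay above, beside 31.8%. WT 0 h and 10 h also differ in the form of the peak names, which moves with the comparison. With that form as a term in the limma fit, 9 members ranked lower and 0 higher, with 15 of the 35 at an unadjusted p under 0.05. This term is estimated from the WT 1 h pair alone, where form and replicate cannot be told apart. Ranked by fold enrichment, 6 ranked lower and 2 higher. Leaving out WT 0 h replicate 1 or 2 left 9 and 6 lower, leaving out WT 10 h replicate 1 or 2 left 9 and 7, and each of the 4 left 0 higher. WT 1 h replicate 2 has the same form of name as the 10 h lists. Against WT 1 h, 21 members ranked lower and 2 higher at 10 h (16.5% and 15.8% of all regions, 22.71% and 14.95% of coding promoter regions). Of these, CDC25C (higher, 0.74) and KIF11 (lower, −0.38) had the other sign in the regions over their canonical starts, at −0.57 ± 0.15 (adjusted p = 0.0124) and 0.27 ± 0.17 (adjusted p = 0.236). In the lists of that form alone, which leave 1 list at 1 h that is assumed to vary like the others, it was 20 and 2. Leaving out either WT 10 h list left 1 higher.

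The cyclins, CDK1 and its activators gave 4 lower and 1 higher of 7 at 10 h. CDK1, the kinase that starts mitosis, stood at the 69.9 and 68.5 percentile at 0 h, 82.4 and 80.2 at 1 h, and 23.1 and 20.8 at 10 h in WT. In the RAD21 line it stood at 88.3 and 85.6 at 0 h and 86.5 and 88.4 at 1 h. The 2 lists at 10 h were thus far below the other 8. CDK1 changed by −1.28 ± 0.11 (SE, n = 2 lists per group) between 0 h and 10 h, with a limma adjusted p of 4.07e-05. CCNB2, the gene of cyclin B2, stood at 74.2 and 71.0 at 0 h, 70.6 and 72.5 at 1 h, and 41.6 and 43.6 at 10 h. Its RAD21 lists lay between 77.1 and 86.8. The change of CCNB2 at 10 h was −0.79 ± 0.13 (adjusted p = 0.00222). CCNB1, the gene of cyclin B1, changed by −0.46 ± 0.15 and CCNA2, that of cyclin A2, by −0.44 ± 0.13. By the strongest peak in place of the merged region, the calls of CCNB1 (adjusted p = 0.114) and CCNA2 (adjusted p = 0.0841) were lost at 10 h, as were those of BUB1 (adjusted p = 0.0822) and CENPA (adjusted p = 0.0769) given below. FOXM1, a transcription factor of G2/M genes, had a difference of −0.24 from 0 h that did not pass the test, and ranked lower than at 1 h (−0.91 ± 0.12).

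CDC25B, a phosphatase that activates CDK1, went the other way. It stood at 60.5 and 57.7 at 0 h and 81.1 and 83.2 at 10 h, a change of 0.69 ± 0.17 (adjusted p = 0.0147). Its merged region spans 19243 bp (chr20:3775423-3794665), over the start and the gene beyond. With the strongest peak over the promoter window in place of the region, the change was 0.58 ± 0.13 (limma adjusted p = 0.0200). That peak was 2393 and 783 bp wide at 0 h, and 14523 and 8193 bp at 10 h. In 10 h replicate 1 its summit lay 11760 bp downstream of the start. This choice thus does not set the promoter apart from the gene beyond. The 0 h and 10 h lists also differ in the form of peak name, with which the peak width moved at ANLN below. For CDC25C, its close relative, the region with the highest mean rank lies 4842 bp from the canonical start site and is shared with the start of FAM53C. That region stood at 98.8 and 99.0 at 0 h and 98.5 and 98.4 at 10 h. The region over the canonical start of CDC25C (chr5:137666373-137668233) had other values. It stood at 44.6 and 45.1 at 0 h, 25.3 and 24.0 at 1 h, and 7.62 and 14.1 at 10 h, a change of −1.12 ± 0.15 at 10 h (adjusted p = 0.000711).

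Among the mitotic kinases and their partners, 1 of 5 ranked lower at 10 h and none higher. BIRC5, whose product survivin belongs to the chromosomal passenger complex with Aurora B, stood at 81.0 and 81.6 at 0 h, 83.0 and 62.0 at 1 h, and 33.2 and 26.7 at 10 h. In the RAD21 line it stood at 69.7 and 73.2 at 0 h and 94.7 and 92.6 at 1 h. Both 10 h lists were below all others, and the change was −1.42 ± 0.17 (adjusted p = 0.000423). The peak at BIRC5 began 51 and 23 bp downstream of the start at 10 h, and 44 and 52 bp upstream of it at 0 h. PLK1, AURKA, AURKB and NEK2 had changes of −0.26 to 0.17 at 10 h and did not pass the test.

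The spindle checkpoint and APC/C genes gave 4 lower of 6. BUB1B, the gene of the checkpoint protein BubR1, stood at 43.7 and 47.6 at 0 h, 67.0 and 57.5 at 1 h, and 25.9 and 14.5 at 10 h, a change of −0.74 ± 0.15 (adjusted p = 0.00597). UBE2C encodes the ubiquitin-conjugating enzyme of the APC/C. It stood at 55.2 and 58.3 at 0 h, 62.0 and 64.3 at 1 h, and 34.9 and 32.4 at 10 h, a change of −0.59 ± 0.12 (adjusted p = 0.00650). In the RAD21 line BUB1B lay between 52.2 and 61.3, and UBE2C between 70.8 and 79.5. For both genes the 10 h lists did not overlap with those of any other group. Leaving out WT 0 h replicate 2 gave adjusted p-values of 0.0619 for BUB1B and 0.0670 for UBE2C, and leaving out WT 10 h replicate 2 gave 0.0778 and 0.0647. BUB3 (−0.57 ± 0.15) and BUB1 (−0.42 ± 0.12) also ranked lower. CDC20, which activates the APC/C, had a change of 0.37 ± 0.15 that did not pass the test in a merged region of 18222 bp, and of 0.04 ± 0.17 by its strongest peak.

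The centromere and outer kinetochore genes gave 5 lower of 7 and 0 higher, with a median change of −0.55. SPC24 and SPC25 encode the NDC80 complex subunits that face the centromere. SPC25 had the change with the smallest p-value among the members. It stood at 56.7 and 54.1 at 0 h, 46.0 and 47.6 at 1 h, and 1.91 and 3.99 at 10 h in WT, and between 40.2 and 45.3 in the 4 lists of the RAD21 line. At 10 h this promoter was thus, in both lists, among the weakest of the 18757 regions called in every list. Peaks missing from any list were not ranked. The change of −2.05 ± 0.14 (limma adjusted p = 1.72e-05) lies beside the lowest of the 18757 regions (−2.06). Its peak also narrowed, from 826 and 875 bp at 0 h to 307 and 413 bp at 10 h, and no longer reached the start site. The median width of the members' strongest peaks went from 1385 and 1353 bp to 2119 and 2175 bp. That median was 1452 and 2218 bp in the 2 lists of 1 h, which differ in the form of peak name. SPC24 stood at 41.7 and 46.7 at 0 h, 64.1 and 65.3 at 1 h, and 22.5 and 12.7 at 10 h. The RAD21 line had SPC24 at 64.4 to 80.9, above every WT list but those of 1 h. Its change at 10 h was −0.80 ± 0.14 (adjusted p = 0.00267). CENPF (−0.58), NDC80 (−0.55) and CENPA (−0.50), the centromeric histone H3 variant, ranked lower too. CENPE, a kinesin that moves chromosomes, had −0.32 and NUF2 −0.11, and neither passed the test.

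Of the 6 spindle motors and microtubule factors, PRC1 ranked lower at 10 h (−0.66 ± 0.14) and the others did not pass the test, with changes of −0.42 (KIF23) to 0.07 (KIF11). The KIF11 value belongs to a region 16532 bp from the canonical start, shared with the start of IDE. The region over the start of KIF11, the gene of the motor that pushes the spindle poles apart, stood at 51.1 and 55.4 at 0 h and 74.0 and 70.6 at 10 h. That region ranked higher, by 0.51 ± 0.17 (adjusted p = 0.0477). With the regions over the canonical starts of KIF11 and CDC25C, a choice made after the data were seen, 18 members ranked lower and 3 higher.

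In the group for cytokinesis and chromosome structure, MKI67 and TOP2A ranked lower, ANLN ranked higher, and ECT2 had a change of 0.04. MKI67 encodes the proliferation antigen Ki-67, which coats mitotic chromosomes. It stood at 90.0 and 87.8 at 0 h, 93.4 and 91.5 at 1 h, and 41.2 and 40.1 at 10 h, against 93.1 to 96.2 in the RAD21 line. It was at 87.8 or higher in the 8 lists of the other groups and lower at 10 h in both lists, a change of −1.46 ± 0.12 (adjusted p = 3.27e-05). TOP2A, the topoisomerase that untangles sister chromatids, changed by −0.65 ± 0.14. ANLN, the gene of the contractile ring scaffold anillin, stood at 48.9 and 46.5 at 0 h and 71.1 and 69.1 at 10 h, a change of 0.58 ± 0.14 (adjusted p = 0.0161). By its strongest peak, in place of a region of 11239 bp, the change was 0.78 ± 0.18 (limma adjusted p = 0.0219). That peak was 1545 and 2102 bp wide at 0 h, and 9106 and 7741 bp at 10 h. In WT at 1 h the peak was 1051 bp wide in replicate 1 and 6915 bp in replicate 2, which differ in the form of peak name. In 0 h replicate 1 it ran from −1814 to −270 bp and did not cover the start, so unlike peaks were compared.

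**Figure D2:**
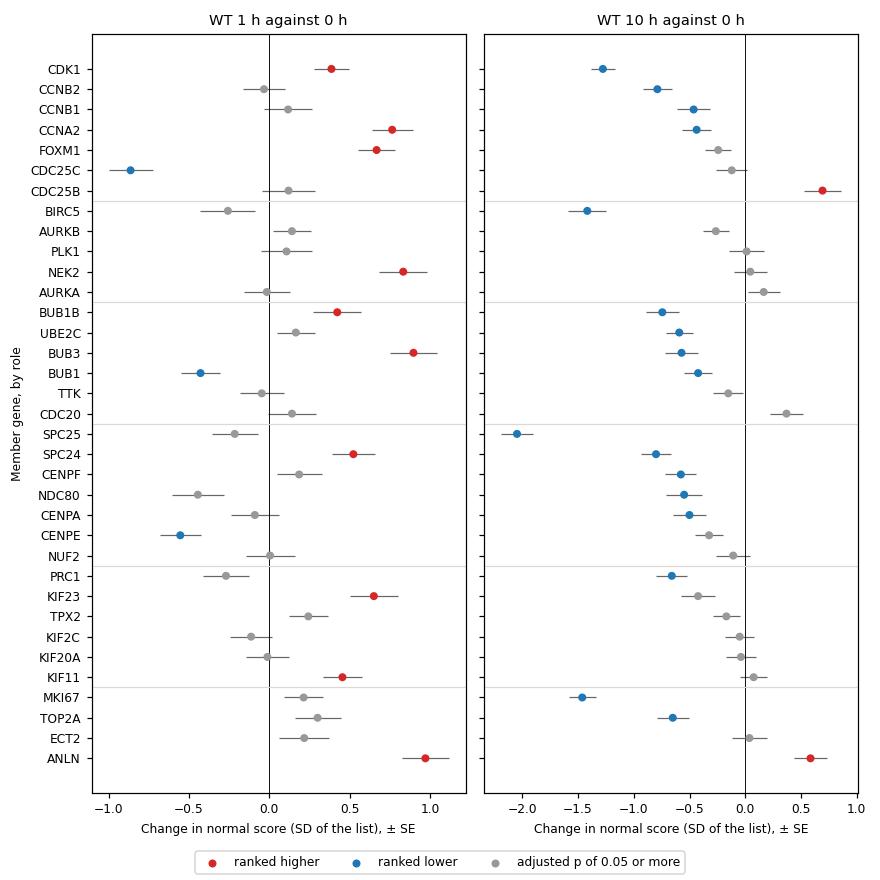
Change in the normal score of the H3K27ac rank (x axis, in SD of a list; bars ± SE, 2 lists per group) for each member (y axis, by role) in WT at 1 h (left) and 10 h (right) against 0 h. At 10 h 17 points are coloured as ranked lower and 2 as ranked higher, and at 1 h 3 and 10.

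Matched by the letters in their promoters, the members with both a CHR word and a CCAAT box gave 9 lower and none higher of 16 at 10 h, with a median change of −0.48. The 12 matched members without the pair gave 5 lower and 2 higher, with a median of −0.29. By CHR words alone, 11 of 22 members with and 3 of 6 without ranked lower. By CCAAT boxes alone, it was 12 of 22 and 2 of 6. The differences between these sets were not tested. CDC25C and KIF11 hold both a CHR word and a CCAAT box at their canonical starts, but their changes here come from regions away from those starts. At the regions over the starts, CDC25C ranked lower (−1.12 ± 0.15, limma adjusted p = 0.000711) and KIF11 higher (0.51 ± 0.17, limma adjusted p = 0.0477). The counts above leave these 2 calls out.

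Genes from other lists are given for context. Of 65 regions of other mitotic genes, 23 ranked lower and 3 higher at 10 h, with a median change of −0.18. PLK4, the kinase of centriole duplication, changed by −1.13 ± 0.13 and DEPDC1 by −0.87 ± 0.12. Of 38 regions of G1/S and replication genes, 24 ranked lower and none higher, with a median of −0.68. MCM3 and MCM10, of the replication machinery, changed by −1.40 ± 0.12 and −1.23 ± 0.11. Of 14 genes of DREAM, MuvB and NF-Y subunits 6 ranked lower and 1 higher. RBL1, the gene of p107, changed by −1.43 ± 0.11 and MYBL2, that of B-MYB, by −1.36 ± 0.14. The promoters of the p53 targets CDKN1A (p21, 0.49 ± 0.16, limma adjusted p = 0.0540) and MDM2 (0.05 ± 0.16) did not pass the test at 10 h. At 1 h MDM2 ranked higher in WT (0.65 ± 0.16, limma adjusted p = 0.00984) and in the RAD21 line (0.62 ± 0.16, limma adjusted p = 0.0131). CDKN1A did not pass the test at 1 h in either line.

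**Figure D3:**
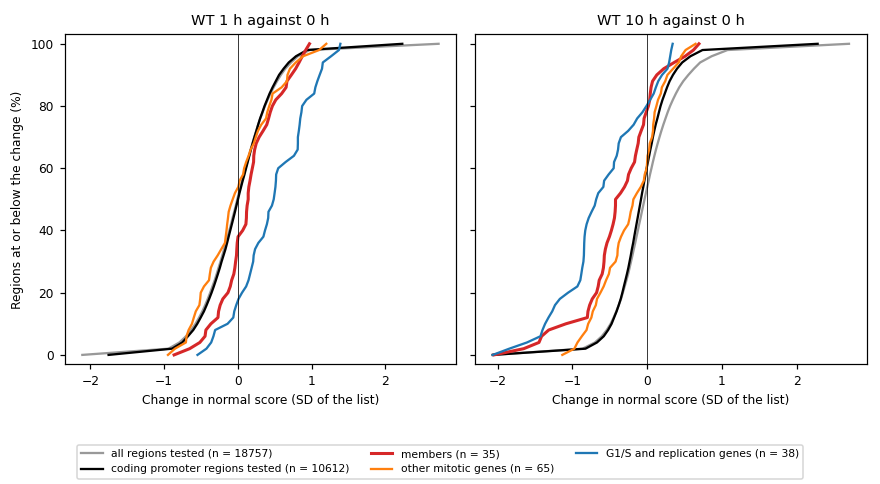
Share of regions (y axis, %) at or below a given change in normal score (x axis, SD of a list) in WT at 1 h (left) and 10 h (right) against 0 h, for the 35 members, 2 other gene lists, the 10612 coding promoter regions and all 18757 regions. At 10 h the members' curve lies left of that of all regions, with medians of −0.42 and −0.04, and that of G1/S and replication genes lies further left, at −0.68.

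After 1 h of Nutlin-3a in WT the picture was another. Here 10 members ranked higher and 3 lower, beside 14.3% of all regions higher and 14.8% lower, with a median change of 0.14 against −0.01 over all regions. Here 1 h replicate 1 shares the form of name of the 0 h lists. In the lists of that form alone, a fit added after seeing the data with 1 list at 1 h, 12 ranked higher and 5 lower. Leaving out WT 0 h replicate 1 left 6 higher and 1 lower, and leaving out replicate 2 left 6 higher and 2 lower. Ranked by fold enrichment, limma gave 0 calls in either direction, with 11 of the 35 at an unadjusted p under 0.05.

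The members with the smallest p-values at 1 h were ANLN, CDC25C, BUB3 and CCNA2. ANLN rose from 48.9 and 46.5 to 74.8 and 87.7 (0.97 ± 0.14, adjusted p = 0.000583) and stood between 78.2 and 82.6 in the RAD21 line. BUB3 encodes a checkpoint partner of BUB1 and BubR1. Its promoter stood at 79.3 and 82.2 at 0 h, 97.7 and 93.8 at 1 h, and 57.9 and 65.4 at 10 h, and rose by 0.90 ± 0.15 at 1 h (adjusted p = 0.00106). BUB3 thus ranked higher at 1 h and lower at 10 h, with no overlap between the 3 time points. It lay between 88.9 and 95.0 in the RAD21 line. CCNA2 followed the same order, with 48.2 and 54.4 at 0 h, 74.2 and 82.8 at 1 h, and 37.4 and 31.4 at 10 h (0.77 ± 0.13 at 1 h, adjusted p = 0.00111). In the RAD21 line CCNA2 lay between 72.7 and 75.2. The other members that ranked higher at 1 h were NEK2, FOXM1, KIF23, SPC24, KIF11, BUB1B and CDK1, by 0.39 to 0.83. The KIF11 call was lost at the region over its canonical start (0.25 ± 0.17, adjusted p = 0.287). The same 0 h lists served here and in the 10 h comparison above.

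The members that ranked lower at 1 h in WT were CDC25C, CENPE and BUB1. The region assigned to CDC25C stood at 93.3 and 90.9 at 1 h, 97.9 and 98.0 in the RAD21 line at 0 h, and 90.3 and 85.8 there at 1 h. Its change was −0.86 ± 0.14 in WT (adjusted p = 0.000857) and −0.85 ± 0.14 in the RAD21 line (adjusted p = 0.000642). The region over the canonical start of CDC25C changed by −0.56 ± 0.15 in WT (adjusted p = 0.0156) and by −0.01 ± 0.15 in the RAD21 line, so the call in that line belongs to the shared region alone. CENPE changed by −0.55 ± 0.13 and BUB1 by −0.43 ± 0.12 in WT.

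In the RAD21 line 7 members ranked higher and 5 lower after 1 h, beside 14.4% of all regions higher and 13.4% lower, with a median change of 0.12 against 0.04 over all regions. NEK2 had the smallest p-value. It stood at 95.3 and 92.9 at 0 h and 73.3 and 62.4 at 1 h in the RAD21 line, a change of −1.10 ± 0.15 (adjusted p = 0.000201). In WT it stood at 16.0 and 20.6 at 0 h, 51.6 and 42.5 at 1 h, and 16.4 and 22.8 at 10 h, so the lines approached each other at 1 h. CENPF encodes a large protein of the outer kinetochore. It stood at 95.9 and 93.4 at 0 h and 79.6 and 77.3 at 1 h in the RAD21 line (−0.84 ± 0.14, adjusted p = 0.000839). Its WT values were 55.7 and 65.1 at 0 h, 70.0 and 64.7 at 1 h, and 43.3 and 32.4 at 10 h. NDC80 (−0.76) and CCNB1 (−0.57) ranked lower as well. BIRC5 rose by 0.97 ± 0.17 (adjusted p = 0.00129) to the values given above, and BUB1, CDC20, KIF11, PRC1, TPX2 and SPC24 by 0.42 to 0.66. Calls of this line were lost for KIF11 at its canonical start (−0.11 ± 0.17, adjusted p = 0.643) and for CDC20 by its strongest peak (0.08 ± 0.17, adjusted p = 0.747). Leaving out RAD21 line 1 h replicate 2 left 3 higher and 3 lower, and leaving out 0 h replicate 1 left 4 higher. Ranked by fold enrichment, limma gave 0 calls, with 7 of the 35 at an unadjusted p under 0.05.

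Before Nutlin-3a, 16 of the 35 members ranked higher in the RAD21 line than in WT and 1, CENPE, ranked lower, beside 16.8% of all regions higher and 20.7% lower. The median change was 0.23, against −0.06 over all regions, and the members' median percentile was 72.8 and 77.1. In 21 of the 35 both RAD21 lists lay above both WT lists, beside 32.6% of all regions, and in 7 both lay below, beside 41.2%. NEK2 differed most, by 2.48 ± 0.15 (adjusted p = 3.07e-07), then CENPF (1.36 ± 0.14), CCNB1 (1.02 ± 0.15), KIF23 (0.95 ± 0.15) and ANLN (0.92 ± 0.14). In the cytokinesis and chromosome structure group the 4 genes were higher, and among cyclins, CDK1 and its activators 4 of 7. The lists of the 2 lines at 0 h have different forms of peak name, so line, treatment with the auxin analogue, history of the derivative and form of name cannot be told apart. With the form as a term, estimated from the WT 1 h pair, 9 members were higher and 1 was lower. Leaving out WT 0 h replicate 1 left 10 higher and 0 lower, and leaving out either WT 1 h list gave 18 higher and 5 lower. At 1 h, where WT replicate 2 has the form of the RAD21 lists, 7 members were higher and 1 lower (5.68% and 6.15% of all regions). In the lists of that form alone it was 11 and 2. Leaving out either RAD21 line 1 h list left 2 higher and 0 lower, either WT 0 h list 4 higher, and either WT 1 h list 13 and 2. Ranked by fold enrichment, limma gave 0 calls at 1 h, with 8 of the 35 at an unadjusted p under 0.05.

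The 1 h change itself differed between the lines at 10 members, more positive in the RAD21 line at 4 and more negative at 6, beside 11.7% and 11% of all regions. The members' share was thus near that of all regions. Leaving out either WT 1 h list gave 9 more negative, and ranking by fold enrichment gave 0 limma calls, with 6 of the 35 at an unadjusted p under 0.05. NEK2 rose in WT and fell in the RAD21 line, a difference of −1.93 ± 0.21 (adjusted p = 7.10e-05). BUB1 encodes a checkpoint kinase at kinetochores. It stood at 59.7 and 58.8 at 0 h, 37.8 and 46.8 at 1 h, and 45.5 and 39.5 at 10 h in WT, and at 56.9 and 60.6 at 0 h and 82.9 and 79.2 at 1 h in the RAD21 line. The lines had BUB1 at like ranks before Nutlin-3a and moved apart, by 1.09 ± 0.17 (adjusted p = 0.000885). For CENPF the difference was −1.02 ± 0.20 (adjusted p = 0.00280). The 2 lines had CENPF far apart at 0 h and nearer at 1 h. BIRC5, CENPE and PRC1 were the others with a more positive change in the RAD21 line, and ANLN, CCNA2, FOXM1 and CCNB1 those with a more negative one.

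**Figure D4:**
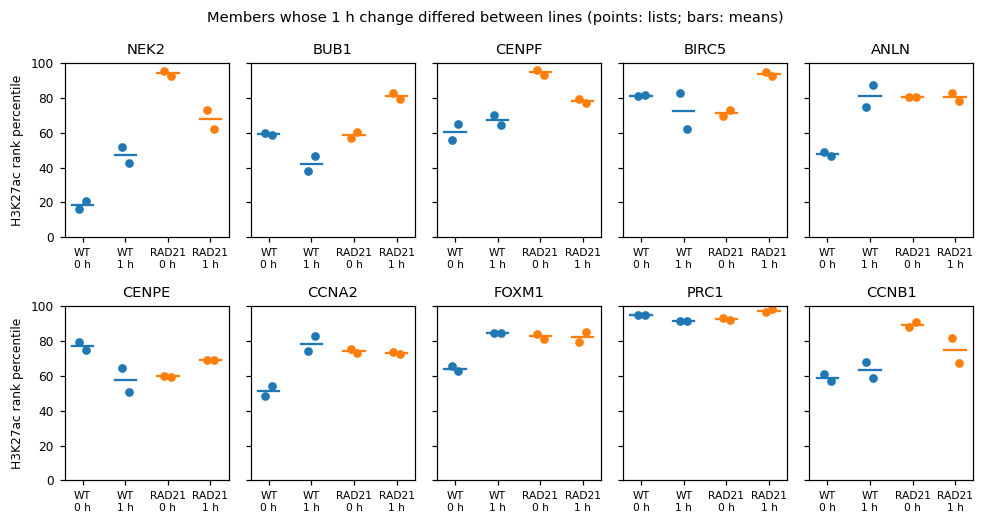
H3K27ac rank percentile (y axis) of the 10 members whose 1 h change differed between lines, in WT and the RAD21 line at 0 h and 1 h of Nutlin-3a (x axis). Points are single peak lists and bars their means of 2. NEK2 goes from 16.0 and 20.6 to 51.6 and 42.5 in WT and from 95.3 and 92.9 to 73.3 and 62.4 in the RAD21 line.

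The span of the peaks was read against the canonical start site. In WT at 0 h the start was under a peak in both lists in 31 of the 35 members, at 1 h in 34, at 10 h in 32, and in the RAD21 line in 35 at both times. At 10 h the starts of SPC25, BIRC5 and CDC25C were not covered in both lists. The strongest peak had its summit a median of 128 to 200 bp downstream of the start, depending on the list, and downstream in 21 to 29 of the members. The point 3000 bp downstream lay under a peak, the promoter's own or another, in no member in the WT 0 h lists and in 22.9% and 34.3% of members in the 10 h lists, against 12.8% and 13.5% of coding promoters at 10 h. In both 10 h lists these were ANLN, BIRC5, BUB1, CDC20, CDC25B, SPC24 and TPX2. The strongest promoter peak itself extended that far in both 10 h lists at ANLN and CDC25B, and in 1 of them at CDC20. A point 1000 bp downstream was covered in 25.7% of members in WT at 0 h and in 82.9% in the RAD21 line at 0 h (means of 2 lists), against 25.5% and 58.6% of coding promoters. The form of peak name moves with these spans within 1 group. In the WT 1 h lists, 1 of each form, the point 1000 bp downstream was covered in 14.3% of members in replicate 1 and 80.0% in replicate 2, and the point 3000 bp downstream in 0% and 17.1%.

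H3K4me1 lay beside the acetylated centre. Regions called in all 6 WT lists were found within 3000 bp downstream of a promoter window in 35 members and upstream in 33. There was none upstream of CCNA2 and SPC25. The share of all coding promoters with such regions was not computed, so these counts are not read as a trait of the members. Every annotated start site counted, and the downstream region of KIF11 (chr10:94334010-94337695) lies away from its canonical start. In some members, such as CCNB1 and PLK1, 1 region spanned the window and counted on both sides. At 1000 bp downstream of the start a peak covered 81.4% of members at 0 h (mean of 2 lists), beside 81.4% of coding promoters with H3K27ac in every list. At the start itself it covered 27.1% of members at 0 h, 40.0% at 1 h and 35.7% at 10 h, beside 50.0%, 62.1% and 48.7% of those coding promoters. The members with the start under H3K4me1 in both 0 h lists were AURKB, BIRC5, BUB1B, CCNB1, CDC25C, SPC24 and SPC25.

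**Figure D5:**
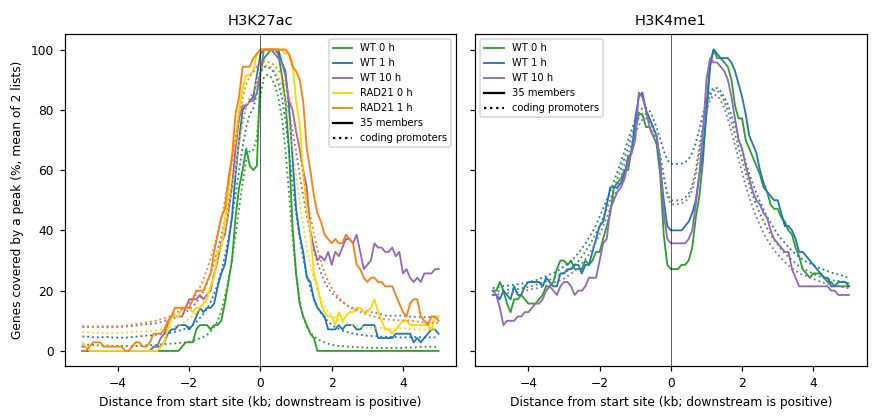
Share of genes with a peak (y axis, %, mean of 2 lists) by distance from the canonical start (x axis, kb, in the direction of the gene) for H3K27ac (left) and H3K4me1 (right), in the 35 members (solid) and 11739 coding genes with H3K27ac in every list (dotted), by group (colour). In WT at 0 h H3K27ac covers 92.9% of members at the start and 98.6% at 500 bp downstream, while H3K4me1 dips to 27.1% at the start.

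The same test was run on the 54 H3K4me1 regions at or beside the member promoters. At 10 h against 0 h, none ranked higher or lower (0.615% and 0.0231% of 60476 regions), with 2 of 54 at an unadjusted p under 0.05 and a median change of −0.08. At 10 h against 1 h there was also none, beside 1.92% higher and 1.13% lower, with 8 of 54 at an unadjusted p under 0.05. Ranking by fold, the stricter peak threshold and the fit without a trend gave none in these comparisons either. At 1 h against 0 h, no region ranked higher and 1 lower, beside 0.291% and 0.304%, with 6 of 54 at an unadjusted p under 0.05. It spans CENPA (chr2:27007793-27012324) and stood at 88.6 and 79.0 at 0 h, 56.3 and 53.3 at 1 h, and 82.4 and 77.4 at 10 h. Its change of −0.89 ± 0.19 (adjusted p = 0.0481) lost the call when any 1 of the 6 lists was left out. H3K4me1 lists gave few calls over the genome. In simulated H3K4me1 data, planted changes of 1 SD were recovered in 0% of 200 regions at 1 h and at 10 h. Those of 2 SD were recovered in 54.0% and 49.5%, so a difference at a single flank may not have been detectable here. The regions beside SPC25, MKI67, CDK1, BIRC5 and CCNB2, whose acetylation ranked lower at 10 h, had H3K4me1 changes at 10 h that did not pass the test. This does not show that H3K4me1 was unchanged there.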

How the data were processed

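H3K27ac and H3K4me1 ChIP-seq peak lists were analysed. The submitters' processing notes name MACS2 2.2.7.1, Bowtie2 2.3.2, SAMtools, deepTools 3.2.1 and Trim Galore 0.6.6, and coordinates are those of GRCh37. The deposited lists give for each peak a fold enrichment, which the authors' peak caller computed as a ratio over background. They also hold a −log10 p-value and a −log10 q-value, as deposited by the authors from MACS2, with 1 list per library. Read counts were not analysed here, so no counting interval could be given.

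For each mark, overlapping peaks from its lists were joined into regions. The 18757 of 87603 H3K27ac and 60476 of 110276 H3K4me1 regions called in every list were tested. Within a list, regions were ranked by their highest −log10 p-value. Ranks were turned into normal scores and fitted with limma 3.58.1 (R 4.3.3; group means, eBayes with a trend, Benjamini-Hochberg adjustment over all regions). H3K27ac was fitted over all 5 groups with 5 residual degrees of freedom, and an exact permutation test of 2 lists against 2 could not go below 0.333. The fit was tested on simulated data. Planted changes of 1 SD against 0 h were recovered in 63.0% to 70.5% of regions for H3K27ac and in 0% for H3K4me1. Start sites were those of GENCODE 44 lifted to GRCh37. A gene with several regions took that of the highest mean rank. Full values are given for the 8 members with the smallest p at 10 h, 4 at 1 h in each line and 3 for the difference between lines, and for 2 genes of each further list. Alternatives were ranking by fold, a −log10 q of at least 5, ranks over coding promoters, no merging, the summit inside the window, no trend, a replicate block, the form of the peak names, and leaving out each list. The members and gene lists were chosen with earlier results of these data known.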

Additional observations from a re-analysis of the deposited data

Results flagged for a closer look

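At 10 of the 35 member promoters the 1 h change in H3K27ac rank differed between the RAD21 line and WT by the interaction term of the limma fit (adjusted p under 0.05 over 18757 regions, 2 lists per group), more negative at 6 and more positive at 4, beside 11% and 11.7% of all regions. The values are the RAD21 line's change less WT's, in SD of a list. The change was more negative in the RAD21 line for NEK2 (−1.93 ± 0.21), CENPF (−1.02 ± 0.20), ANLN (−0.97 ± 0.20), CCNA2 (−0.80 ± 0.18), CCNB1 (−0.69 ± 0.21) and FOXM1 (−0.68 ± 0.16). It was more positive for BIRC5 (1.23 ± 0.24), BUB1 (1.09 ± 0.17), CENPE (0.81 ± 0.18) and PRC1 (0.76 ± 0.20). The form of the peak names differs between the WT 0 h lists and the RAD21 lists. With that form as a term, estimated from the WT 1 h pair alone, 9 members had a more negative and 5 a more positive change.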

How the results depend on the processing

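The lists give no read depth, and 2 lists per group limit every test. Of 1924 member calls recomputed under an alternative, 4 had the other sign. At 10 h against 1 h these were KIF11 ranked by fold enrichment (0.21) and, at the region over the canonical start, CDC25C (−0.57) and KIF11 (0.27). In the RAD21 line at 1 h it was KIF11 at that region (−0.11). Where counts moved by over 1.5 times, they are given as higher and lower members.

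Ranked by fold enrichment, WT had 0 and 0 at 1 h, 6 lower at 10 h against 0 h, and 0 and 5 at 10 h against 1 h. The RAD21 line had 0 and 0 at 1 h, the lines 0 and 0 at 1 h, the difference of changes 0 and 0, and H3K4me1 at 1 h 0 lower. With the form of the peak names as a term, 10 h against 0 h gave 0 and 9, the lines at 0 h 9 higher, and the lines at 1 h 13 and 2. In lists with input in their names alone the lines at 1 h gave 11 and 2, and in those without it WT gave 5 lower at 1 h (added after seeing the data). With the summit in the window in every list, 16 members were left. They gave 2 higher at 1 h, 1 and 4 at 10 h against 0 h, 7 lower at 10 h against 1 h, 3 and 2 in the RAD21 line, 5 higher between lines at 0 h, 2 higher at 1 h, and 1 and 1 for the difference. Fewer members were tested there. Without merging, and with ranks over coding promoters, 2 were lower between lines at 0 h. Without a trend, 4 were higher between lines at 1 h. With the region over the canonical start, added after seeing the data, 1 was higher at 10 h against 1 h. The H3K4me1 call at 1 h fell to 0 without a trend and at a −log10 q of at least 5. The cause of the other shifts was not tested.

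Leaving out 1 list in turn gave 6 to 13 higher and 1 to 4 lower in WT at 1 h, 0 to 3 and 6 to 20 at 10 h against 0 h, and 1 to 3 and 15 to 21 at 10 h against 1 h. It gave 3 to 9 and 3 to 6 in the RAD21 line, 10 to 18 and 0 to 5 between lines at 0 h, 2 to 13 and 0 to 2 at 1 h, and 3 to 5 and 4 to 9 for the difference. For H3K4me1 it gave 0 lower at 1 h and 0 to 1 higher at 10 h against 1 h.

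Replicate numbers did not pair the samples, with correlations of deviations of −0.05 to 0.05. These are the labels' numbers, and the peak names carry other numbers in replicate 2 of the RAD21 line at both times and in both H3K4me1 lists of 1 h, so neither the check nor the block tests a pairing by those names. A replicate block moved the lines at 1 h to 4 higher and 0 lower, and H3K4me1 at 10 h against 1 h to 1 higher, while 10 h against 0 h gave 12 lower and 2 higher.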
